A study of Mus musculus with 12 samples.

Results

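The 10 genes described here encode the enzymes that hydroxylate collagen chains and crosslink collagen fibrils. They are the lysyl oxidases Lox, Loxl1, Loxl2, Loxl3 and Loxl4, the lysyl hydroxylases Plod1, Plod2 and Plod3, and the prolyl 4-hydroxylase alpha subunits P4ha1 and P4ha2. They were chosen by mouse gene symbol, and all 10 were found among the 55401 genes of the deposited table. RNA sequencing was done on dermis of C57BL/6 mice aged 6 weeks, either wild type (WT) or lacking Cthrc1 (Cthrc1-/-), a gene for a secreted protein with collagen triple helix repeats. The animals carried paired wounds of equal size, and dermis was taken at days 0 and 7. The 4 groups of genotype and day had 3 biological replicates each, 12 samples in all. The labels do not say whether day 7 dermis came from wound bed, margin or nearby skin, and give no detail of the Cthrc1 allele.

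Collagen is modified in steps. Inside the endoplasmic reticulum, prolyl 4-hydroxylase, built from an alpha subunit and protein disulfide isomerase, hydroxylates prolines and so makes the triple helix stable at body temperature. Lysyl hydroxylases modify lysines in the same compartment, and Plod2 acts on the telopeptides, where its product gives rise to the pyridinoline crosslinks typical of scars and fibrosis. After secretion, lysyl oxidases oxidise lysines and hydroxylysines to aldehydes, which condense into the covalent crosslinks of collagen fibrils and of elastin.

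Counts of Cthrc1 were at most 15 in any Cthrc1-/- library and at least 1813 in any WT library. Total counts were 48329668 to 76938132 per library, and the lowest count of any of the 10 genes in any library was 123. Levels are given in FPKM, fragments scaled by transcript length and library size, which can be compared between genes. Correlations between replicates across 14313 genes were 0.964 to 0.969 in WT day 0 but reached down to 0.863 in Cthrc1-/- day 0 and 0.878 in WT day 7. One library in each of the latter groups stood apart for these enzymes, and the fitted results below that they moved are given with and without them. WT day 7 replicate 1 held the highest value of all 12 libraries for 10 of the 10 genes. It was also the highest of its group for 26.5% of all genes tested. Cthrc1-/- day 0 replicate 3 was the lowest of its group for 8 of the 10 genes, against 38.8% of all genes. The other end of each group was also mostly held by 1 library. WT day 7 replicate 3 was the lowest of its group for 10 of the 10 genes, against 24.6% of all genes. Cthrc1-/- day 0 replicate 1 was the highest of its group for 9 of the 10, against 35.8%.

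Cell type markers moved with WT day 7 replicate 1 and Cthrc1-/- day 0 replicate 3. In WT day 7 replicates 1 to 3, 5 neutrophil markers summed to 5045, 741 and 39.1 FPKM and 6 macrophage markers to 1462, 599.8 and 296 FPKM, while 6 keratinocyte markers summed to 2261, 6007 and 9313 FPKM. In Cthrc1-/- day 0, 7 dermal fibroblast markers summed to 1619, 889 and 265 FPKM in replicates 1 to 3, below the 3066 to 3994 FPKM of WT day 0. The 7 hair follicle markers found, of 8 listed, summed to 221, 4632 and 11366 FPKM in the same libraries and to at most 7.55 FPKM in WT day 0. No marker of these lists was at 0 throughout a group. The fibroblast markers Dcn and Lum, small proteoglycans of dermis, were present in every library, at 51.1 FPKM or more for Dcn and 27.0 FPKM or more for Lum. Keratinocyte markers were present in every library too, so keratinocyte RNA, of epidermis or of hair follicles, was part of the samples labelled dermis. In bulk tissue, fewer cells of a type and less RNA per cell cannot be told apart.

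Among the lysyl oxidases, Lox, Loxl2 and Loxl1 dominated WT dermis on day 0, at 25.4 ± 5.52, 25.4 ± 1.24 and 20.3 ± 4.62 FPKM (SD, n = 3). The other two paralogs were minor: Loxl4 stood at 4.004 ± 0.530 FPKM and Loxl3 at 2.02 ± 0.572 FPKM (SD, n = 3). P4ha1 (17.9 ± 0.495 FPKM), Plod3 (15.7 ± 0.837 FPKM), Plod1 (15.6 ± 1.25 FPKM) and P4ha2 (12.3 ± 1.63 FPKM) lay between these groups, and Plod2 was the lowest of the 10 at 1.51 ± 0.441 FPKM (SD, n = 3 each). Of neighbours in this order, the ranges over replicates overlapped for Lox and Loxl2, Loxl1 and P4ha1, Plod3 and Plod1, and Loxl3 and Plod2. By day 7 in WT the range of each gene overlapped that of the next in order for 9 of 9 neighbours, and 1 library carried values far above the other two.

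**Figure D1:**
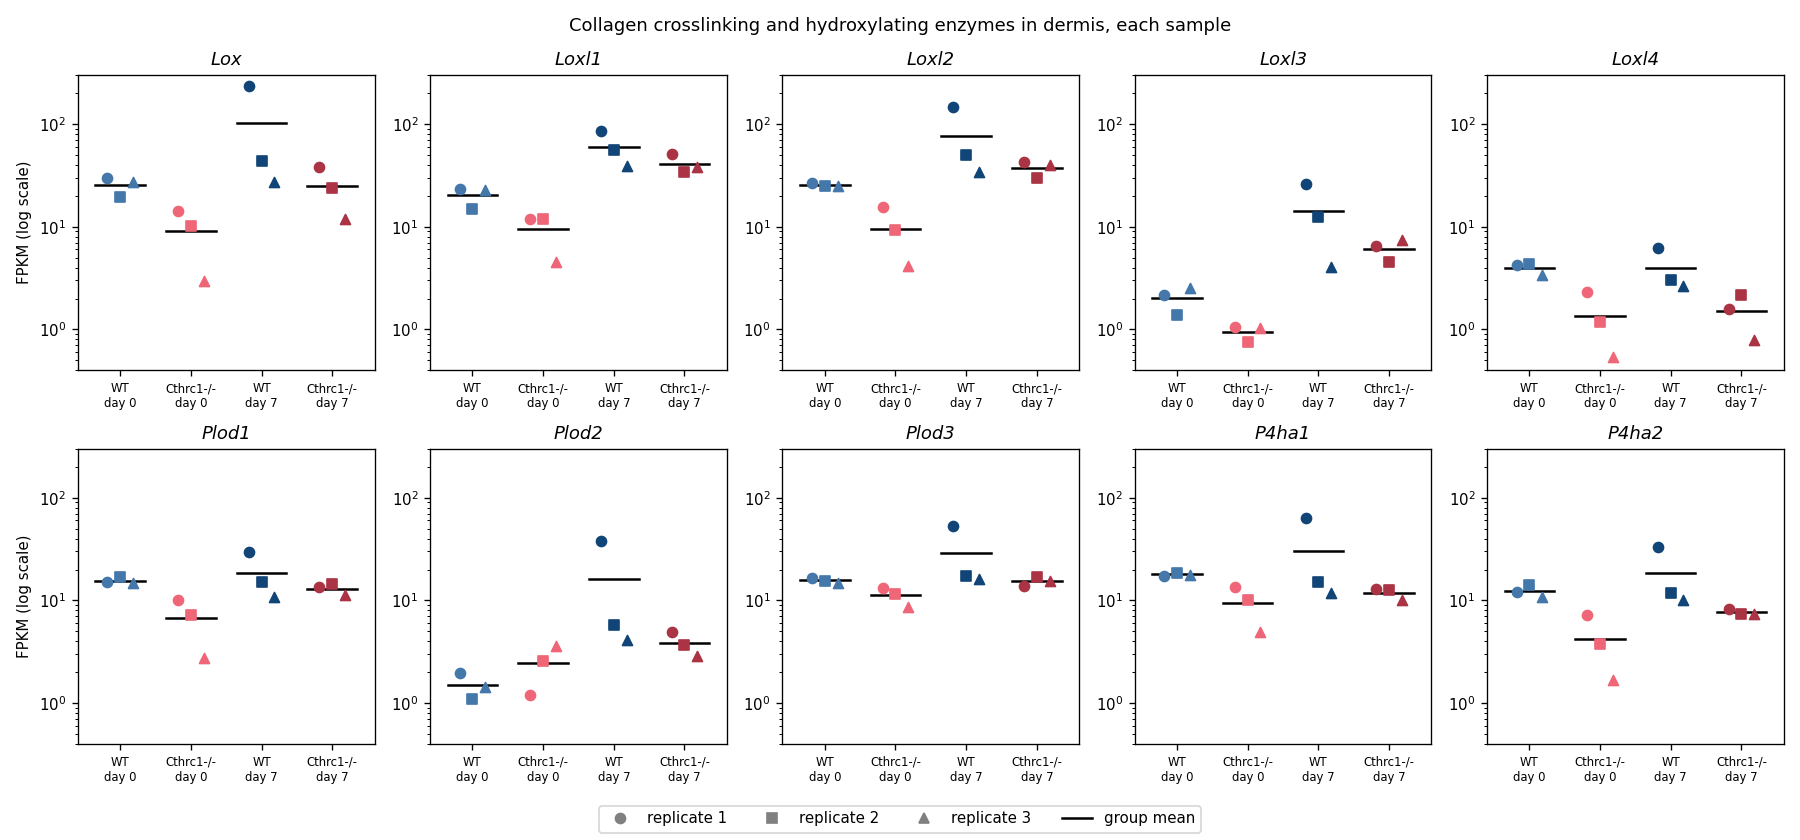
FPKM on a log axis for each of the 10 genes in each of 12 libraries; symbols mark replicates 1 to 3 and black lines the group means. The circle of WT day 7, replicate 1, is the highest point in every panel, from 6.27 FPKM for Loxl4 to 232 FPKM for Lox.

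Lox (chromosome 18, 52516067 to 52529867, minus strand; GRCm38) encodes the founding lysyl oxidase, a copper enzyme that oxidises both collagen and elastin. On day 0 its FPKM in replicates 1 to 3 was 29.8, 19.2 and 27.3 in WT and 14.1, 10.2 and 2.99 in Cthrc1-/-. On day 7 it was 232, 43.6 and 27.0 in WT and 38.0, 23.9 and 11.98 in Cthrc1-/-. On day 0 the genotypes did not overlap, with all Cthrc1-/- libraries below all WT libraries; on day 7 they overlapped. WT day 7 replicate 1 held 6.58 times the mean of the other two libraries, and replicate 3 of that group lay within the range of WT day 0. Lox overlaps the antisense gene AC161119.1, and strand use in the counting is not stated, so their counts may not be fully apart. The same holds for Loxl2 and the antisense gene Gm27177.

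Loxl1 (chromosome 9, 58287738 to 58313186, minus strand) encodes the paralog best known for elastic fibre maintenance. It stood at 23.4, 15.0 and 22.5 FPKM at day 0 and 85.7, 55.3 and 38.5 FPKM at day 7 in WT, and 11.97, 11.8 and 4.54 FPKM at day 0 and 51.4, 34.0 and 37.8 FPKM at day 7 in Cthrc1-/-. All 6 day 7 libraries were above all 6 day 0 libraries. On this gene WT day 7 replicate 1 stood apart least, at 1.83 times the mean of the other two. Loxl2 (chromosome 14, 69609068 to 69695834, plus strand), a secreted oxidase of collagen IV and fibrillar collagen, showed the same order of groups. Its values were 26.9, 24.7 and 24.7 FPKM at day 0 and 146, 49.5 and 34.3 FPKM at day 7 in WT, and 15.5, 9.18 and 4.12 FPKM at day 0 and 42.3, 29.6 and 39.5 FPKM at day 7 in Cthrc1-/-. Again every day 7 library was above every day 0 library, and on day 0 the genotypes did not overlap.

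Loxl3 (chromosome 6, 83034173 to 83052562, plus strand), which contributes to palate and spine development, was low on day 0 and higher on day 7. It read 2.14, 1.39 and 2.51 FPKM at day 0 and 25.9, 12.4 and 4.03 FPKM at day 7 in WT, and 1.07, 0.750 and 1.02 FPKM at day 0 and 6.44, 4.53 and 7.41 FPKM at day 7 in Cthrc1-/-. The lowest day 7 library, 4.03 FPKM, lay above the highest day 0 library. Its 3′ end overlaps Htra2 on the opposite strand, with the same limit on its counts. Loxl4 (chromosome 19, 42593982 to 42612813, minus strand) was the exception of the family. It held 4.26, 4.36 and 3.39 FPKM at day 0 and 6.27, 3.06 and 2.62 FPKM at day 7 in WT, and 2.30, 1.19 and 0.543 FPKM at day 0 and 1.60, 2.17 and 0.789 FPKM at day 7 in Cthrc1-/-. The days overlapped in both genotypes, and the genotypes did not overlap on either day.

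Plod1 (chromosome 4, 147909753 to 147936767, minus strand) hydroxylates lysines in the helical part of the collagen chain and is mutated in the kyphoscoliotic form of Ehlers-Danlos syndrome. It measured 15.1, 17.0 and 14.7 FPKM at day 0 and 29.3, 15.2 and 10.8 FPKM at day 7 in WT, and 10.1, 7.20 and 2.78 FPKM at day 0 and 13.5, 14.5 and 11.2 FPKM at day 7 in Cthrc1-/-. Cthrc1-/- day 0 lay below the other 3 groups in every library, and WT day 7 spanned the range of both WT day 0 and Cthrc1-/- day 7. Plod3 (chromosome 5, 136987019 to 136996648, plus strand), which also glycosylates hydroxylysine, read 16.6, 15.6 and 15.0 FPKM at day 0 and 53.1, 17.4 and 16.2 FPKM at day 7 in WT, and 13.3, 11.6 and 8.73 FPKM at day 0 and 13.8, 17.0 and 15.4 FPKM at day 7 in Cthrc1-/-. Here too Cthrc1-/- day 0 lay below all libraries of the other 3 groups, by a margin from 13.3 to 13.8 FPKM. Outside WT day 7 replicate 1, Plod3 stayed between 8.73 and 17.4 FPKM in 11 libraries. Plod3 overlaps Znhit1 on the opposite strand, again with that limit.

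Plod2 (chromosome 9, 92542223 to 92608428, plus strand), the telopeptide lysyl hydroxylase, differed from the others. On day 0 it read 1.98, 1.11 and 1.44 FPKM in WT and 1.21, 2.61 and 3.58 FPKM in Cthrc1-/-, so that here the genotypes overlapped on day 0 with the higher mean in Cthrc1-/-. On day 7 it was 38.2, 5.73 and 4.15 in WT and 4.97, 3.71 and 2.88 in Cthrc1-/-. All WT day 7 libraries were above all WT day 0 libraries. WT day 7 replicate 1 held 7.74 times the mean of the other two, the widest gap among the 10 genes.

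The prolyl 4-hydroxylase alpha subunits carry the catalytic site of the enzyme that sets the thermal stability of collagen. P4ha1 (chromosome 10, 59323296 to 59373304, plus strand) read 17.5, 18.5 and 17.8 FPKM at day 0 and 63.5, 15.1 and 11.8 FPKM at day 7 in WT, and 13.4, 10.001 and 4.89 FPKM at day 0 and 12.97, 12.6 and 10.1 FPKM at day 7 in Cthrc1-/-. P4ha2 (chromosome 11, 54100095 to 54131665, plus strand) read 12.1, 14.1 and 10.8 FPKM at day 0 and 33.0, 11.9 and 10.04 FPKM at day 7 in WT, and 7.28, 3.76 and 1.67 FPKM at day 0 and 8.35, 7.36 and 7.33 FPKM at day 7 in Cthrc1-/-. For P4ha1, 2 of 3 WT day 7 libraries lay below all WT day 0 libraries while replicate 1 lay far above them. P4ha2 separated the genotypes on both days, with every Cthrc1-/- library below every WT library of its day.

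P4ha1 and P4ha2, both textbook targets of hypoxia-inducible factor, had a Pearson r of log2(FPKM + 1) of 0.94 over the 12 samples. That r was not particular to the pair, being 0.96 for Plod1 and P4ha2 and 0.94 for Plod3 and P4ha1. The promoter windows of P4ha1 and P4ha2 are shown as the 250 bases before the RefSeq start on GRCm38.p6, plus strand, 5′ to 3′. Capitals mark ACGTG and GCGTG, the core of the hypoxia response element, or their reverse complements. The P4ha1 window is chr10:59323046-59323295 and the P4ha2 window, which lies inside the GENCODE span of the gene upstream of the RefSeq start, is chr11:54100674-54100923.
P4ha1: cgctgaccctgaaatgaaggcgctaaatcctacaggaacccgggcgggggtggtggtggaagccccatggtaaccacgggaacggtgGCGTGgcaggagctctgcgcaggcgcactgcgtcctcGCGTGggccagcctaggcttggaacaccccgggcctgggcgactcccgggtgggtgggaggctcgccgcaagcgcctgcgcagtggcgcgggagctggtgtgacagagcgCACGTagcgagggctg
P4ha2: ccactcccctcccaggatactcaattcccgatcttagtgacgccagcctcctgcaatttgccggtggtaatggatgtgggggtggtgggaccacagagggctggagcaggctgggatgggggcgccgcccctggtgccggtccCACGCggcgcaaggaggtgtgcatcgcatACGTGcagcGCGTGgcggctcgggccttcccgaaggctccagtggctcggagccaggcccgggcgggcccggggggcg
Of the 10 genes, 5 had a window in the table used, namely Loxl4, Plod1, Plod3, P4ha1 and P4ha2. ACGTG, read on both strands, was in 3 of these 5, Plod3, P4ha1 and P4ha2, against 16.6% of 32851 promoter windows of the same length. GCGTG was in 5 of 5, against 28.2% of all windows. Both motifs contain the step CG, and these 5 windows held 55.6 to 76% G and C. The windows set beside them were not matched for this content, so the counts do not show an excess of the motifs. The motifs differ in their first base, ACGTG is also part of the palindrome CACGTG, and either was in 38.6% of windows. A match describes letters only.

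The first comparison asked how the enzymes differed between genotypes on day 0. Of the 10 genes, 9 were lower in every Cthrc1-/- library than in every WT library, against 19.8% of all genes tested with such a separation downward. None of the 10 was called by edgeR at an adjusted p under 0.05, against 5.78% of 14313 genes, and 5 had an unadjusted p under 0.05 against 28.4% of genes. DESeq2 called 3 of the 10, Loxl1, Loxl4 and P4ha2, all lower. The median log2 change of the 10 was -1.24, beside -0.047 for all genes tested. Loxl4 had the largest fitted difference, at -1.64 on the log2 scale (standard error, SE, 0.588, edgeR adjusted p 0.107), followed by P4ha2 at -1.61 (SE 0.585, edgeR adjusted p 0.110). Lox (-1.56), Loxl2 (-1.48), Plod1 (-1.29), Loxl3 (-1.19), Loxl1 (-1.19), P4ha1 (-1.004) and Plod3 (-0.59) followed, with edgeR adjusted p between 0.116 and 0.408. Plod2 was the only one of positive sign, at 0.57 (edgeR adjusted p 0.652). Without Cthrc1-/- day 0 replicate 3 the median of the 10 was -0.999, with 9 of 10 still negative and 0 at an unadjusted p under 0.05. A library outside the comparison, which enters the shared fit, also moved the calls: without WT day 7 replicate 1, 9 of 10 had an unadjusted p under 0.05 and P4ha2 was called. Without both libraries P4ha2 (-1.17, edgeR adjusted p 0.0417) and Plod1 (-0.87, edgeR adjusted p 0.0474) were called. Leaving out Cthrc1-/- day 0 replicate 1 instead gave a median of -1.59 for the 10, and Loxl4 and P4ha2 were called. The fibroblast and hair follicle markers given above differed between the same groups. So did the macrophage markers, which summed to 254 to 273 FPKM in WT and 72.9 to 192 FPKM in Cthrc1-/-. Sums of smooth muscle (241 to 263 against 78.5 to 152 FPKM), adipocyte (137 to 177 against 69.6 to 100.4 FPKM), skeletal muscle (276 to 631 against 63.9 to 246 FPKM) and endothelial markers (47.6 to 48.3 against 13.2 to 38.1 FPKM) were lower in Cthrc1-/- without overlap too. Neutrophil (6.25 to 11.7 against 22.6 to 88.5 FPKM) and melanocyte marker sums (8.46 to 10.4 against 24.4 to 107.5 FPKM) were higher there. The neutrophil sum was mostly S100a8 (mean 1.46 against 17.2 FPKM) and S100a9 (5.11 against 38.2 FPKM). Of its other markers, Cxcr2 had a higher mean in Cthrc1-/- (0.219 against 0.549 FPKM). Csf3r (0.631 against 0.424 FPKM) and Retnlg (0.646 against 0.613 FPKM) did not. The part of these markers in the enzyme differences was not tested.

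On day 7 all 10 genes had a lower mean in Cthrc1-/- than in WT, and none passed the test. None of the 10 was called, against 0.021% of all genes, and DESeq2 also called 0. An unadjusted p under 0.05 was reached by 7 of 10, beside 5.46% of genes. The median log2 change of the 10 was -1.37, beside -0.0055 for all genes. Plod2 and Lox had the largest differences, at -2.23 (SE 0.799) and -2.20 (SE 0.873), both with an edgeR adjusted p of 0.907. These values rested on WT day 7 replicate 1. Without it the log2 change was -0.38 for Plod2, -0.54 for Lox, -0.20 for P4ha1, -0.20 for Loxl2, -0.15 for Plod3 and -0.018 for Plod1, the median of the 10 was -0.30, and 0 of 10 had an unadjusted p under 0.05. Only Loxl4 and P4ha2 kept the genotypes apart in every library, against 2.67% of genes lower in this way. Loxl4 was 2.62 to 6.27 FPKM in WT and 0.789 to 2.17 in Cthrc1-/-, and its log2 change of -1.50 (SE 0.585, edgeR adjusted p 0.907) became -0.92 without that library. The neutrophil, macrophage and keratinocyte markers of replicate 1 moved with these values. Fibroblast markers summed to 2157 to 2942 FPKM in WT day 7 and 1428 to 2002 FPKM in Cthrc1-/- day 7, without overlap. Of these markers only Col1a1, most of the sum, kept the genotypes apart (1525 to 2293 against 884 to 1260 FPKM). Pdgfra, Pdgfrb, Dcn, Lum, Dpt and Twist2 overlapped between genotypes. The sums of the other marker lists overlapped between genotypes on day 7. The part of these markers in the enzyme values was not tested.

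**Figure D2:**
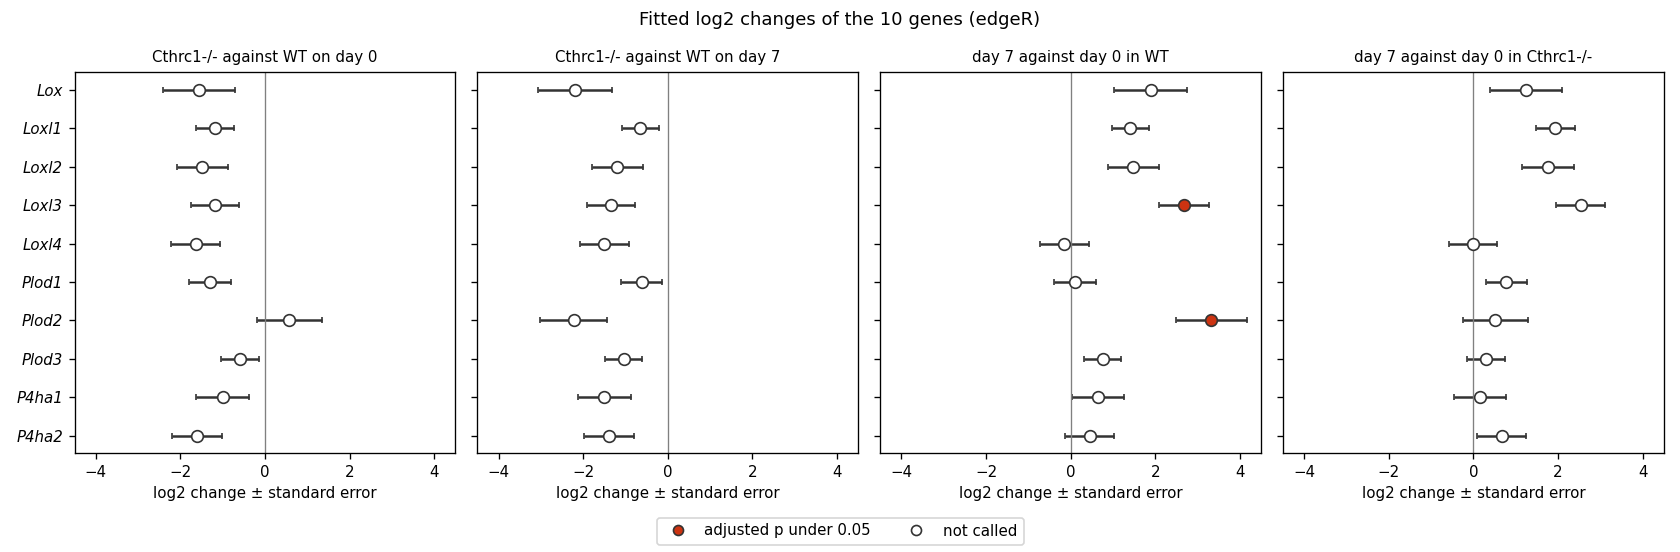
Fitted log2 changes with standard errors for the 10 genes in the 4 comparisons; red points are called by edgeR at an adjusted p under 0.05. Red points are seen only for Loxl3 and Plod2 between days in WT, and all genotype changes but that of Plod2 on day 0 lie left of 0.

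The next comparison asked which enzymes changed from day 0 to day 7 in WT dermis. Loxl3 and Plod2 rose, and no enzyme was called lower. These were 2 of 10 called, both higher, against 13.1% of all genes called, 6.04% higher and 7.1% lower. On the log2 scale Loxl3 rose by 2.69 (SE 0.591, edgeR adjusted p 0.0192) and Plod2 by 3.32 (SE 0.838, edgeR adjusted p 0.0306). Loxl1 (1.41, edgeR adjusted p 0.0603), Loxl2 (1.48, edgeR adjusted p 0.122) and Lox (1.896, edgeR adjusted p 0.158) did not pass, and 4 of 10 had an unadjusted p under 0.05 beside 32.5% of genes. The days of Loxl4 overlapped. Higher values without overlap were found for 4 of 10, Loxl1, Loxl2, Loxl3 and Plod2, against 29.8% of genes. The median log2 change of the 10 was 1.08, beside -0.0019 for all genes. Without WT day 7 replicate 1, Loxl3 was still called at 1.89 (edgeR adjusted p 0.0344), Plod2 was at 1.56 (edgeR adjusted p 0.0544) and Lox at 0.33. The same library set the sign of 4 enzymes: without it the log2 change was -0.40 for Plod1, -0.053 for Plod3, -0.56 for P4ha1 and -0.31 for P4ha2, where it had been 0.10, 0.75, 0.65 and 0.45. With Cthrc1-/- day 0 replicate 3 left out as well, Loxl1, Loxl3 and Plod2 were called higher and P4ha1 lower (-0.63, edgeR adjusted p 0.0428). Both calls were lost when any WT day 0 replicate was left out, with edgeR adjusted p of 0.0596 to 0.0779 for Loxl3 and 0.0811 to 0.108 for Plod2, and when only the 2 WT groups were fitted (0.0639 and 0.0806). Cell type markers differed between the same groups. From day 0 to day 7 in WT, hair follicle markers summed to 4.31 to 7.55 and then 1635 to 3817 FPKM, neutrophil markers to 6.25 to 11.7 and then 39.1 to 5045 FPKM, macrophage markers to 254 to 273 and then 296 to 1462 FPKM, and melanocyte markers to 8.46 to 10.4 and then 47.6 to 123 FPKM. The sums of fibroblast markers (3066 to 3994 and then 2157 to 2942 FPKM) and adipocyte markers (137 to 177 and then 44.9 to 75.5 FPKM) were lower on day 7. None of the ranges of these sums overlapped. The macrophage sum was mostly Lyz2 (mean 188 and then 516 FPKM). Lyz2 and Adgre1 were higher on day 7 without overlap, while Cd68, Csf1r, Mrc1 and Cd14 overlapped between days. The fibroblast sum was mostly Col1a1 (mean 2581 and then 1902 FPKM), and Dcn, Lum and Dpt had lower means on day 7 too. Pdgfra (6.88 and then 12.2 FPKM), Pdgfrb (18.4 and then 24.3 FPKM) and Twist2 (10.1 and then 10.6 FPKM) had higher means. The part of all these markers in the enzyme values was not tested.

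In Cthrc1-/- dermis 3 lysyl oxidases had the largest differences between days. The log2 change was 2.53 for Loxl3 (SE 0.590, edgeR adjusted p 0.0648), 1.94 for Loxl1 (SE 0.450, edgeR adjusted p 0.0645) and 1.76 for Loxl2 (SE 0.608, edgeR adjusted p 0.163). None of the 10 was called, against 1.46% of all genes. These 3 had an unadjusted p under 0.05, beside 18.1% of genes, and they were called by DESeq2 and by limma on log2(FPKM + 1). They were also called by edgeR without WT day 7 replicate 1, a library outside this comparison that enters the shared estimate of spread. Day 7 was higher without overlap for 6 of 10, Loxl1, Loxl2, Loxl3, Plod1, Plod3 and P4ha2, against 21.5% of genes. Plod2 differed by 0.52 (SE 0.769) with overlapping days, and P4ha1 by 0.15 (SE 0.619), which was -0.18 without Cthrc1-/- day 0 replicate 3. Macrophage markers, at 72.9 to 192 FPKM on day 0 and 384 to 405 FPKM on day 7, neutrophil markers (22.6 to 88.5 and 382 to 1158 FPKM), smooth muscle markers (78.5 to 152 and 262 to 369.7 FPKM) and endothelial markers (13.2 to 38.1 and 73.9 to 131 FPKM) were higher on day 7 without overlap. Fibroblast markers overlapped, at 265 to 1619 and 1428 to 2002 FPKM. The part of these markers in the enzyme values was not tested.

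The interaction of genotype and day tested for unequal changes over time in WT and Cthrc1-/-. None of the 10 was called, against 0.014% of genes, and DESeq2 also called 0. Plod2 alone had an unadjusted p under 0.05, as did 15.1% of all genes, at -2.80 (log2, SE 1.10, edgeR adjusted p 0.281). That value was -1.03 without WT day 7 replicate 1, and 0 of 10 then had an unadjusted p under 0.05. The median interaction of the 10 was -0.01 with that library and 0.85 without it.

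After these values had been seen, the same fit was used to average over the other factor. Averaged over both genotypes, 4 of 10 rose between days, against 17.9% of genes called and 8.35% called higher. The log2 change of Loxl3 was 2.61 (edgeR adjusted p 0.00408), that of Loxl1 1.67 (edgeR adjusted p 0.00805), that of Plod2 1.92 (edgeR adjusted p 0.0408) and that of Loxl2 1.62 (edgeR adjusted p 0.0291). All 4 were called again without WT day 7 replicate 1, and with that library and Cthrc1-/- day 0 replicate 3 both left out, when P4ha1 was called lower as well. Leaving out other single libraries lowered the number to 2 in 6 cases, with Loxl1 and Loxl3 called each time. The sums of the neutrophil and macrophage markers given above were higher on day 7 in both genotypes, and their part was not tested. Averaged over both days, all 10 genes had a lower fitted level in Cthrc1-/-, with a median log2 change of -1.26, which was -0.74 without WT day 7 replicate 1. Of the 10, 9 remained negative without that library, while Plod2 went from -0.83 to 0.13. None was called, against 0.559% of genes, while 9 had an unadjusted p under 0.05, beside 21.1% of genes. The edgeR adjusted p of all 10 genes ranged from 0.107 to 0.396, and DESeq2 called 7, namely Lox, Loxl1, Loxl2, Loxl3, Loxl4, P4ha1 and P4ha2.

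The share of each paralog in its family was also computed in each sample. Loxl4 supplied 4.92, 6.73 and 4.22% of the summed lysyl oxidase FPKM in WT day 0 and 1.26, 1.87 and 2.46% in WT day 7. In Cthrc1-/- the same share was 5.13, 3.597 and 4.11% on day 0 and 1.14, 2.30 and 0.809% on day 7, so that the days were apart in both genotypes. The share of Loxl3 went the other way, from 2.59 ± 0.496% to 5.52 ± 1.898% in WT (SD, n = 3), without overlap. In Cthrc1-/- it was 2.38, 2.26 and 7.74% on day 0 and 4.61, 4.7999 and 7.61% on day 7, with the days overlapping. Plod2 supplied 5.88, 3.28 and 4.62% of the lysyl hydroxylase FPKM in WT day 0 and 31.7, 14.9 and 13.3% in WT day 7. In Cthrc1-/- its share was 4.90, 12.2 and 23.7% on day 0 and 15.4, 10.5 and 9.78% on day 7, with the days overlapping. In Cthrc1-/- day 0 replicate 3 the share of Plod2 was highest and that of Plod1 lowest, at 18.4%. P4ha1 held 59.4 ± 2.73% of the alpha subunit FPKM in WT day 0 and 70.7 ± 5.14% in Cthrc1-/- day 0 (SD, n = 3), without overlap, and about the same share as WT day 0 in both day 7 groups (58.6 ± 6.33% and 60.6 ± 2.51%, SD, n = 3). With 3 samples against 3 an exact permutation test cannot go below 0.1, so these shares are given without a test.

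**Figure D3:**
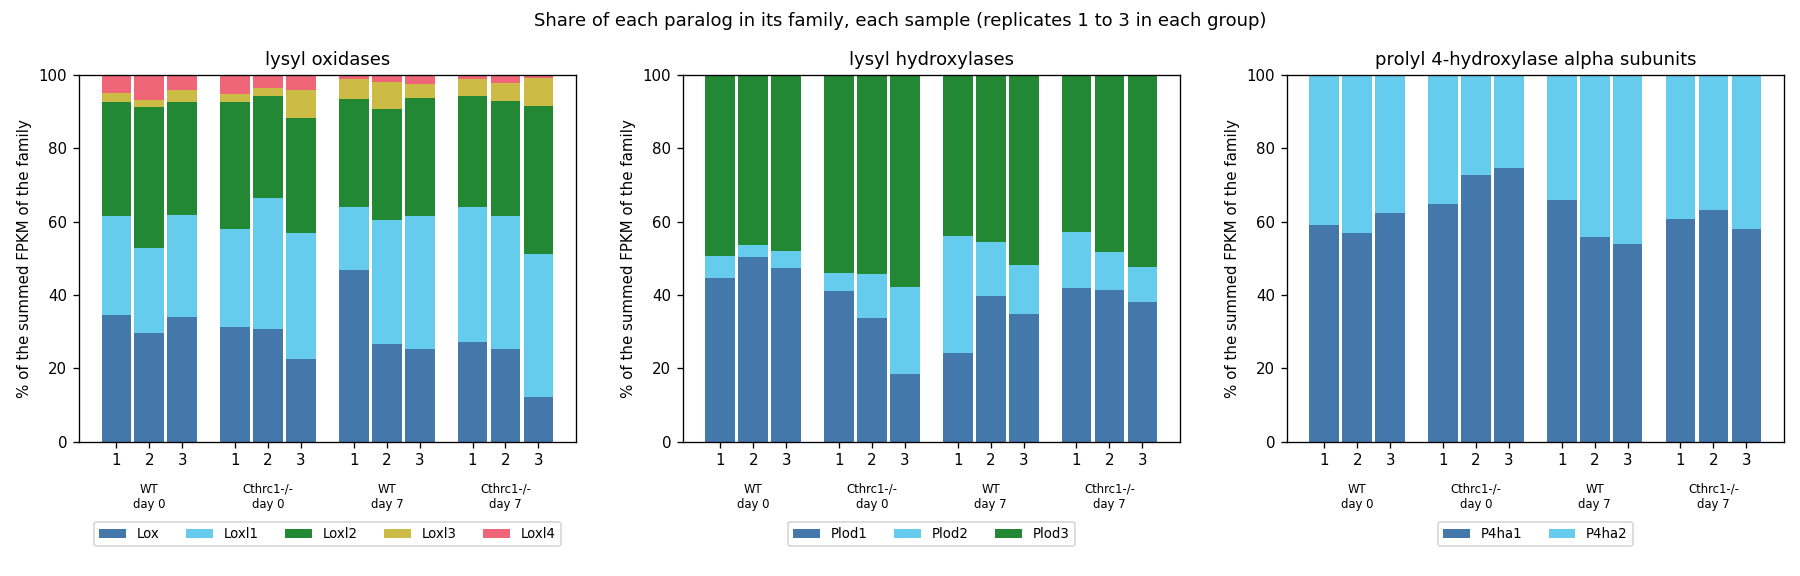
Share of each paralog in the summed FPKM of its family, in percent, for each library (bars; replicates 1 to 3 in each group). The red Loxl4 band is thinner on day 7 than on day 0, and the light blue Plod2 band is thickest in WT day 7 replicate 1 at 31.7%.

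Enzyme levels were next set against their substrate. Col1a1, Col1a2 and Col3a1, the major fibrillar collagen chains of skin, summed on day 0 to 4961 ± 802 FPKM in WT and 1108 ± 868 FPKM in Cthrc1-/-, and on day 7 to 4030 ± 885 and 2312 ± 597 FPKM (SD, n = 3). Lysyl oxidase FPKM relative to this sum was 1.79, 1.11 and 1.897% at day 0 and 10.3, 3.93 and 3.45% at day 7 in WT. In Cthrc1-/- it was 2.25, 3.08 and 5.14% at day 0 and 4.65, 4.78 and 4.96% at day 7. The lowest ratio was thus in WT day 0, and the Cthrc1-/- day 7 libraries were close together, within the range of WT day 7. On day 0 the ratio to collagen was higher without overlap in Cthrc1-/- for 9 of 10 enzymes, all but Loxl3, but so it was for 93.7% of all genes, the collagen sum in the denominator being lower there. Between days in WT 8 of 10 enzymes had a higher ratio without overlap, against 34.2% of genes. The exceptions were Loxl4 and P4ha1. In Cthrc1-/- 0 of 10 did so, against 0.825% of genes, and Loxl4 and P4ha1 had a lower ratio on day 7, against 20.2% of genes. On day 7 the genotypes overlapped in this ratio for 10 of 10, beside 40% of genes higher and 0.0839% lower in Cthrc1-/-.

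**Figure D4:**
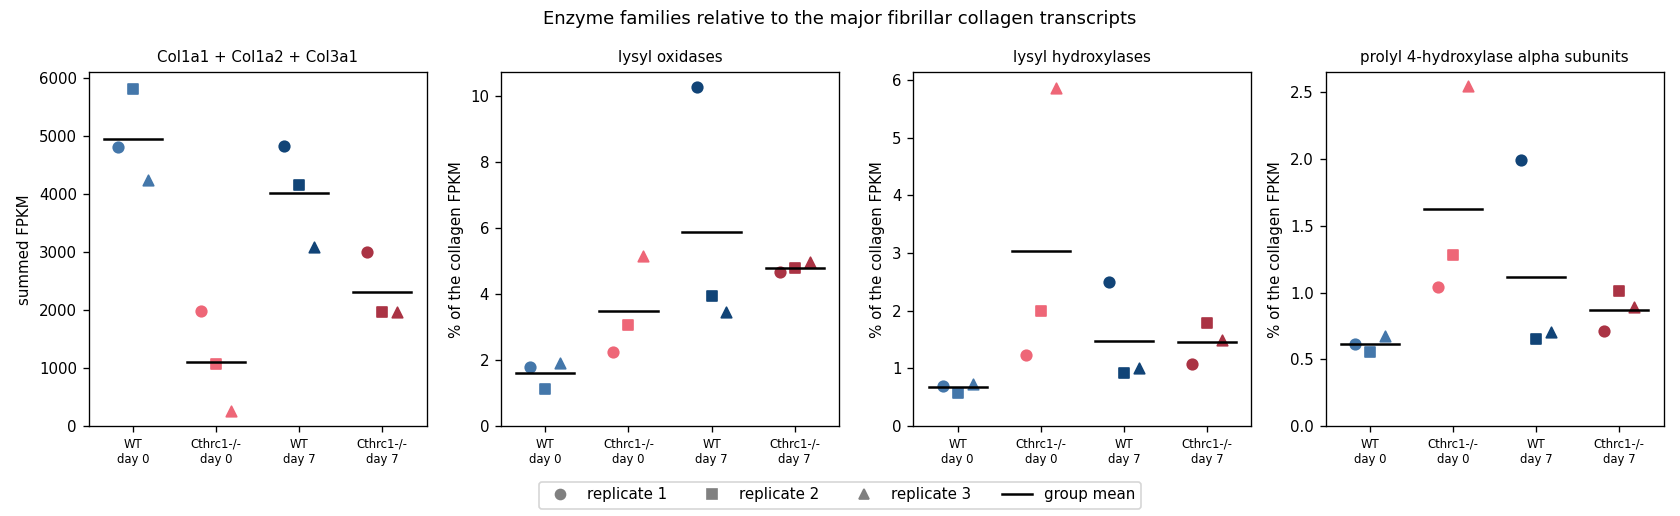
Summed FPKM of Col1a1, Col1a2 and Col3a1 (left) and the summed FPKM of each enzyme family as a percentage of it, for each library, with group means as lines. Lysyl oxidases stand at 1.11 to 1.897% in WT day 0 and at 3.45 to 10.3% in WT day 7.

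Other genes of collagen assembly gave a context. Of 16 tested genes for modification and folding in the endoplasmic reticulum, out of 17 listed, 15 had a negative log2 change between genotypes on day 0, as did 53.6% of all genes, with a median of -1.24 beside -0.047 for all genes. In this list 3 of 16 fell, against 2.26% of genes called lower in this comparison: Mia3, a cargo receptor for procollagen export (13.9 ± 0.300 against 8.18 ± 1.87 FPKM in Cthrc1-/-; SD, n = 3), and the prolyl isomerases Fkbp14 and Fkbp7. Their log2 changes were -0.88, -1.75 and -1.68, with edgeR adjusted p of 0.0287, 0.0307 and 0.0454. P4hb, the protein disulfide isomerase that forms the other subunit of prolyl 4-hydroxylase, did not pass between genotypes on day 0 (log2 change -0.11, SE 0.315, edgeR adjusted p 0.837). Serpinh1, the collagen chaperone, differed by -1.28 (edgeR adjusted p 0.193). Of 12 tested genes for procollagen processing and lysyl oxidase activation, out of 16 listed, 2 fell on day 0, against the same 2.26%: Sparc, a collagen-binding matricellular protein (log2 change -2.11, edgeR adjusted p 0.0400), and the procollagen N-propeptidase Adamts14 (-2.40, edgeR adjusted p 0.0373). Of 8 tested fibrillar substrates, out of 10 listed, 1 fell, again beside 2.26% of genes. This was Col1a2 (-2.43, edgeR adjusted p 0.0480), while Col1a1 (-2.23, edgeR adjusted p 0.0542) did not pass. The median log2 change on day 0 was -1.40 for the processing list and -1.77 for the substrates. Of these 6 genes, all were called again without WT day 7 replicate 1. Without Cthrc1-/- day 0 replicate 3 Mia3 (edgeR adjusted p 0.0573) and Fkbp14 (edgeR adjusted p 0.0504) were not. The markers given for day 0 differed between the same groups, and their part was not tested. None of these lists had a call between genotypes on day 7, with medians of -0.73, -0.66 and -0.79 in the order given.

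Between days in WT, 3 of 16 genes of the endoplasmic reticulum list, 3 of 12 of the processing list and 1 of 8 substrates were called, against 13.1% of all genes. P4ha3, the third alpha subunit, rose from 0.871, 0.269 and 1.11 FPKM to 9.88, 7.45 and 3.79 FPKM (log2 change 3.07, SE 0.693, edgeR adjusted p 0.0205). In Cthrc1-/- it rose from 0.254, 0.0417 and 0.0884 FPKM to 4.28, 3.64 and 4.92 FPKM (log2 change 4.83, SE 0.764, edgeR adjusted p 0.0224). The days did not overlap in either genotype. Thus among the alpha subunits the change between days that passed the test was that of P4ha3, which is not among the 10 genes. Crtap, a partner of the prolyl 3-hydroxylase complex, rose in WT (0.85, edgeR adjusted p 0.0339) and P3h2, a prolyl 3-hydroxylase, fell (-1.53, edgeR adjusted p 0.0166). Of the processing and activation genes, Efemp2, the fibulin that presents lysyl oxidase to its substrate, rose in WT (1.93, edgeR adjusted p 0.0437) from 6.66 ± 0.730 to 27.4 ± 23.6 FPKM (SD, n = 3), with 54.4 FPKM in replicate 1. The procollagen C-proteinase enhancer Pcolce2 (-2.50, edgeR adjusted p 0.0294) and fibromodulin, Fmod (-1.60, edgeR adjusted p 0.0313), fell. Among the substrates Col11a1 rose in both genotypes (2.30 in WT and 1.78 in Cthrc1-/-, edgeR adjusted p 0.00657 and 0.0443). In Cthrc1-/- P4ha3 and Col11a1 were the only calls in these lists, 1 of 16 and 1 of 8, against 1.46% of genes called and 0.859% called higher. In WT, leaving out WT day 7 replicate 1 ended the calls of Crtap (edgeR adjusted p 0.0522), Efemp2 (0.92, edgeR adjusted p 0.0502), Fmod (edgeR adjusted p 0.0930) and Pcolce2 (edgeR adjusted p 0.0830), while P4ha3, P3h2 and Col11a1 were called again. In Cthrc1-/-, leaving out day 0 replicate 3 ended the call of Col11a1 (edgeR adjusted p 0.0604) and P4ha3 was called again. The markers given for each pair of days moved with these genes too, and their part was not tested.

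The hypoxia-responsive list and the list of TGF-beta ligands and early targets, hypoxia and TGF-beta being textbook inducers of several of these enzymes, had no call in the 4 group comparisons. Averaged over both genotypes, the matricellular genes Ccn1 (-1.32, edgeR adjusted p 0.0408) and Ccn2 (-1.69, edgeR adjusted p 0.0359) of the TGF-beta list fell between days, against 17.9% of genes called, and no gene of the hypoxia list was called. Between genotypes on day 0 their median log2 changes were 0.12 and -0.66, and on day 7 -0.43 and -0.62. Of 15 hypoxia-responsive genes, 13 had a positive and 2 a negative log2 change between days in WT, with a median of 0.69. Of all genes 50.2% were negative in that comparison. In Cthrc1-/- 7 of the 15 were positive and 8 negative, with a median of -0.037, beside 51.2% of all genes negative. The summed FPKM of the hypoxia list was 1438, 650.3 and 472 in WT day 7 replicates 1 to 3 and 488 to 510.3 in WT day 0. Replicate 1 was thus high and replicate 3 lay below WT day 0. Aldoa and Ldha, glycolytic enzymes and the most abundant of the list, read 315 and 349 FPKM in replicate 1 against at most 259 and 127 FPKM in the other WT day 7 libraries. The TGF-beta list had a median log2 change between days of -0.41 in WT and -0.53 in Cthrc1-/-. It summed to 1501, 192 and 167 FPKM in WT day 7 replicates 1 to 3 and to 548 to 597 FPKM in WT day 0. The library with the highest enzyme values was thus also the highest of its group in both sums, and more so in the TGF-beta sum. The part of these genes in the enzyme values was not tested.

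The 10 genes varied together over the 12 samples. The median Pearson r of log2(FPKM + 1) over their 45 pairs was 0.81, from 0.29 for Loxl4 and Plod2 to 0.96 for Plod1 and P4ha2. The points share 4 groups and the libraries Cthrc1-/- day 0 replicate 3 and WT day 7 replicate 1. A median r for pairs of other genes was not computed, so 0.81 is not shown to be particular to these enzymes. The 2 genes nearest to each enzyme, given below, were not among the 10. Without those 2 libraries the median was 0.59 and the lowest r was -0.44, for Plod2 and P4ha1. Loxl1, Loxl2 and Loxl3 then still went together (r of 0.91 to 0.96), as did Loxl4, P4ha1, P4ha2 and Plod1 (0.69 to 0.92), while the r of Loxl1 with Loxl4 was -0.135 and with P4ha1 -0.111. These are descriptions over 10 samples.

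**Figure D5:**
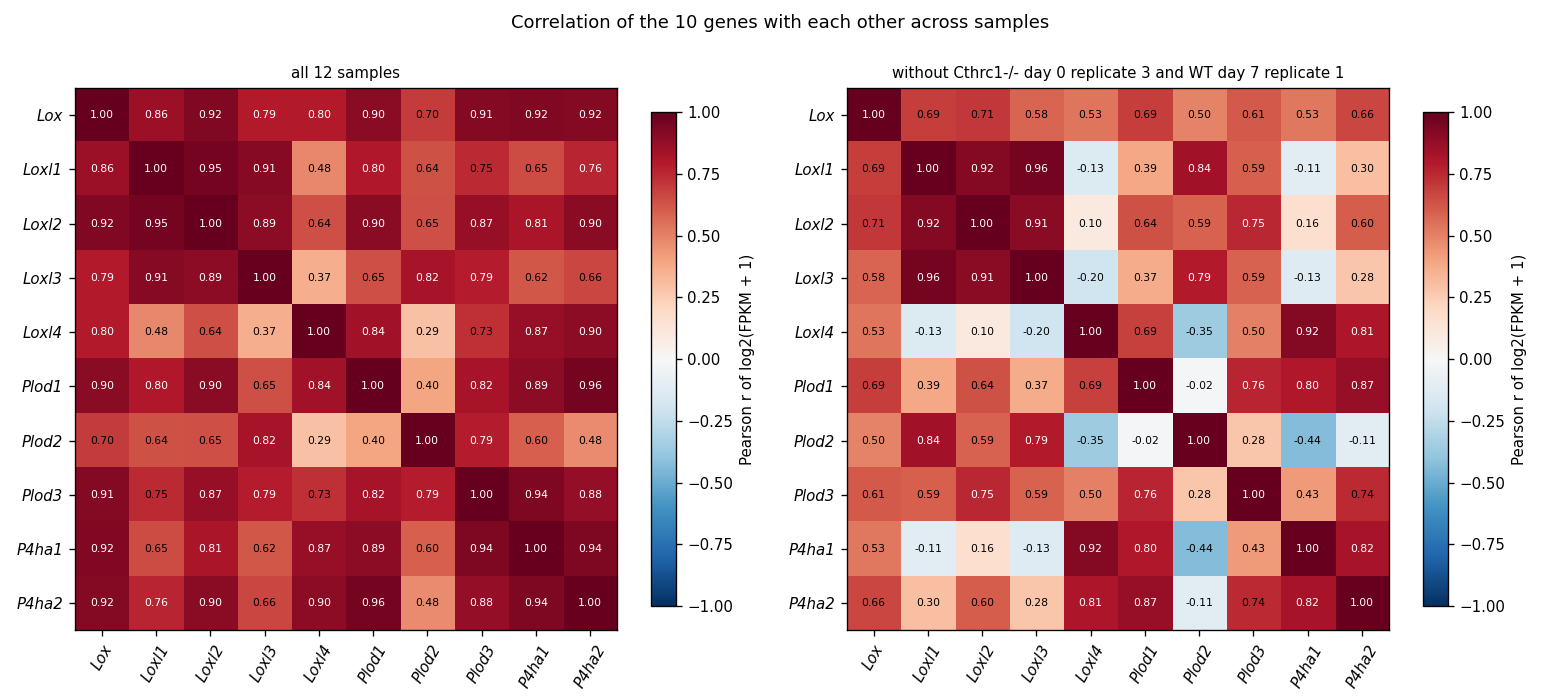
Pearson r of log2(FPKM + 1) between the 10 genes over all 12 samples (left) and without Cthrc1-/- day 0 replicate 3 and WT day 7 replicate 1 (right). The median over 45 pairs is 0.81 on the left and 0.59 on the right, where Plod2 and P4ha1 stand at -0.44.

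Among the genes of at least 5 FPKM on average, those most like each enzyme over the 12 samples were also listed, by Pearson r and with no test. Lox was nearest to Pdgfra, a fibroblast receptor (r 0.98), and to Il33 (0.98). Loxl1 was nearest to Adam19 and Bgn, which encodes biglycan (0.99 each), Loxl2 to Lyz2, a myeloid lysozyme, and Sec23a (0.98 each), and Loxl3 to Emilin1 and Bin1 (0.98 each). For Plod1 they were Antxr2 and Ergic1 (0.98 each), for P4ha2 Creb3l1, a transcription factor of secretory cells, and Lrpap1 (0.98 each), and for Loxl4 Iqgap1 and Prelp (0.93 each). Plod3 was nearest to Pf4 and Cd14, genes of platelets and of monocytes (0.98 each), and P4ha1 to Fth1 and Flot1 (0.98 each). Plod2 was nearest to Slc39a14 and Pstpip1 (0.97 each), where leaving out WT day 7 replicate 1 lowered r the most, to 0.89 and 0.86. Without that library r was 0.97 for Lox and Pdgfra and 0.99 for Loxl1 and Bgn.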

How the data were processed

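Poly(A) RNA of 12 dermis samples was sequenced as strand-specific dUTP libraries with molecular identifiers, per the labels' protocols. The submitters' processing notes name cutadapt 1.9, HISAT2 2.0.4, UMI-tools, StringTie 1.3.4d, DESeq2, edgeR and the GRCm38 build; which step each served is not given in the sources used here. The authors deposited 1 table with an FPKM and a count per gene and sample, per the file headers. A count of 0 carries an FPKM of 0.0001, read here as 0. Gene IDs were named with GENCODE M21, which matched 55141 of 55401. Low counts fall on multiples of 4 more often than on their neighbours, so division by 4 was an alternative.

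The counts were tested with edgeR 4.0.16 in R 4.3.3 (quasi-likelihood test, two-sided, TMM) in 1 fit of 12 samples with a mean per group. The 14313 genes averaging 1 FPKM or more were kept, among them all 10 enzymes. P-values were Benjamini-Hochberg adjusted over these genes and called under 0.05. A standard error is the size of the fitted log2 change over the root of its F statistic. The procedure was also run on simulated counts with the same spread for all genes and no outlying library. That run cannot show how the calls behave at the spread seen here. Alternatives used DESeq2 1.42.0, limma 3.58.1 on log2(FPKM + 1) and log2(FPKM + 0.1), other scalings and filters, only the groups compared, a replicate block, and each replicate left out. The enzymes, the gene and marker lists and the tests were chosen with earlier results of these data known. Named genes were the 10 enzymes, the 2 genes nearest each by Pearson r, and from each list the 2 of highest mean FPKM and those called, up to 4. One gene that this rule names is not reported here. Promoter windows come from RefSeq on GRCm38.p6. With 3 samples a group, no group was screened for outliers. Per-sample columns left unused numbered 0.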

Additional observations from a re-analysis of the deposited data

How the results depend on the processing

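Most refits counted kept the direction of the log2 change. Of the refits counted, 905 kept direction and side of the threshold, 39 newly passed it, 27 no longer did and 11 changed sign. This count left out Loxl4 between days, interactions other than that of Plod2, and averaged changes that were not called. Loxl4 differed little between days (-0.147 in WT, -0.0086 in Cthrc1-/-). It turned positive in WT with total-count scaling and without day 7 replicate 2 or 3. In Cthrc1-/- it did so with limma, total-count scaling, only the groups compared, the replicate block and some replicates left out. In the comparisons of 2 groups, sign changes came between days. In WT the log2 change of Plod1 was -0.083 with the replicate block and, without both Cthrc1-/- day 0 replicate 3 and WT day 7 replicate 1 (an alternative chosen after seeing the data), it was -0.47 for Plod1, -0.12 for Plod3, -0.63 for P4ha1 and -0.38 for P4ha2; leaving out 1 replicate gave -0.40 to 0.41 for Plod1, -0.053 to 1.08 for Plod3, -0.56 to 1.06 for P4ha1 and -0.31 to 0.78 for P4ha2. In Cthrc1-/- P4ha1 was -0.19 without both libraries and -0.18 to 0.53 with 1 replicate left out. Other values also turned without WT day 7 replicate 1: averaged over days Plod2 went from -0.83 to 0.13, and the interaction from -0.65 to 0.98 for Lox, -0.16 to 0.68 for Loxl3, -0.46 to 0.39 for Plod3 and -0.49 to 0.77 for P4ha1.

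The number of the 10 enzymes called moved more. Between genotypes on day 0 it was 0 as reported, 3 with DESeq2, 1 with the replicate block, 2 without both libraries and 0 to 2 with 1 replicate left out. Between days in WT it was 2 as reported, 4 with DESeq2, 0 with only the groups compared, 1 with the replicate block, 4 without both libraries (Loxl1, Loxl3 and Plod2 higher and P4ha1 lower) and 0 to 3 with 1 replicate left out. Between days in Cthrc1-/- it was 0 as reported, 3 with DESeq2, 3 and 3 with limma on log2(FPKM + 1) and log2(FPKM + 0.1), 2 with total-count scaling, 1 with a mean FPKM of at least 5, 1 with only the groups compared, 1 with the replicate block, 3 without both libraries and 0 to 3 with 1 replicate left out. Averaged over days it was 0 as reported, 7 with DESeq2 and 0 to 2 with 1 replicate left out; averaged over genotypes it was 4 as reported and 2 to 5. On day 7 between genotypes and for the interaction it was 0 throughout. Over all genes, the number called with 1 replicate left out ran from 18 to 2146 between genotypes on day 0 (827 as reported, 19 with only those groups fitted, 2787 with DESeq2), from 527 to 3005 between days in WT (1880, and 3551 with DESeq2) and from 5 to 911 between days in Cthrc1-/- (209, and 1409 with DESeq2). Between genotypes on day 7 it was 3, and 62 with DESeq2, and for the interaction 2, and 681 with DESeq2. Correlations of deviations from the group means were also taken between same-numbered libraries. They were -0.12 to 0.43 between days in Cthrc1-/- and 0.02 to 0.09 in WT. Between genotypes they were -0.03 to 0.05 on day 0 and -0.23 to 0.14 on day 7. Differently numbered libraries gave -0.45 to 0.52 between days in Cthrc1-/- and -0.083 to 0.016 in WT. Between genotypes these gave -0.067 to 0.071 on day 0 and -0.18 to 0.22 on day 7. For Cthrc1-/- day 0 and WT day 7, which were not compared, same-numbered libraries gave 0.22, 0.12 and 0.18 and the others -0.20 to 0.11. With 3 libraries a group, these values cannot settle whether the replicate numbers pair the samples. Total-count scaling moved the median log2 change of all genes to 0.20 in WT and 0.16 in Cthrc1-/- between days. It also moved the calls between days from 864 higher and 1016 lower to 1669 and 543 in WT, from 123 and 86 to 649 and 98 in Cthrc1-/-, and those between genotypes on day 0 from 503 and 324 to 523 and 209. The cause of each lost or gained call was not tested.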
